A study of Mus musculus with 6 samples.

Results

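The Iroquois genes Irx1, Irx2, Irx3, Irx4, Irx5 and Irx6 encode homeodomain transcription factors of the TALE class, and each was read by 1 probe. These 6 probes were all those whose annotated gene symbol is a member of the family, out of 16625 probes with a symbol and 23466 probes in the table. All 6 had a value on every array and were tested. Expression was measured on 1-colour arrays in neural stem cells, self-renewing progenitors of the brain, from C57BL6 mice at postnatal day 0, cultured in DMEM/F12 medium with bFGF, EGF and heparin and given no treatment. The groups were Ecrg4 homozygous, Ecrg4 heterozygous and Ecrg4 wild type cells, with 2 arrays each, and Ecrg4 encodes a small secreted protein. The sources used here do not give the kind of change in the Ecrg4 allele, nor whether a genotype's arrays stem from different animals or cultures. P-values thus measure only the array-to-array spread, part of which may be technical.

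Iroquois genes take their name from Drosophila, where they set up the regions in which proneural genes are switched on. In vertebrates they pattern the neural plate and later mark midbrain, hindbrain and spinal cord progenitors and parts of the diencephalon, while most of the telencephalon lacks them. The mouse genes lie in paired clusters on 2 chromosomes, and neighbouring members of a cluster share enhancers and often overlap in where they are expressed. In the RefSeq annotation of GRCm38.p6, Irx1 (chr13:71958232-71963723), Irx2 (chr13:72624430-72634196) and Irx4 (chr13:73259589-73269622) formed a cluster that spanned 1311 kb. Irx3 (chr8:91798511-91801654), Irx5 (chr8:92357796-92361456) and Irx6 (chr8:92674289-92680956) formed the other, which spanned 882 kb. The sources used here do not say which stretch of a gene its probe matches.

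The sequences before the start sites of Irx2 and Irx4 are shown because these genes share the chromosome 13 cluster, and of this pair Irx2 passed the tests described next and Irx4 did not. They are the 250 bases before the start site that the RefSeq promoter table uses in GRCm38.p6, which lies within the annotated span of each gene, both on the plus strand, at chr13:72628570-72628819 for Irx2 and chr13:73260247-73260496 for Irx4. Capitals mark GC boxes (GGGCGG) and CCAAT boxes (CCAAT), each searched on both strands.
Irx2: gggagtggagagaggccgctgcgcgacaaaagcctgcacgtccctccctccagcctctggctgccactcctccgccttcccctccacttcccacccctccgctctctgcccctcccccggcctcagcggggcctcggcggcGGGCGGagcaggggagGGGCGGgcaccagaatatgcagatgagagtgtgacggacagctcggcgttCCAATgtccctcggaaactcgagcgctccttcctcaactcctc
Irx4: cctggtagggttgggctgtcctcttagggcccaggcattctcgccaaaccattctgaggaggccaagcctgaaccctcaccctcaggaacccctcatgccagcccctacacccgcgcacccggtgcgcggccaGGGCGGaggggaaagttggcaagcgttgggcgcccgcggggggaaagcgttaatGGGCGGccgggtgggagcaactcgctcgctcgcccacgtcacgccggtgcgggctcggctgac
Both windows were rich in G and C, at 68.4% for Irx2 and 68.8% for Irx4, against a median of 52.4% over the 32851 windows of the RefSeq table. Irx2 held 19 CpG pairs and Irx4 held 22, against a median of 6. Each held 2 GC boxes, a motif present in 32.7% of all windows. Irx2 also held 1 CCAAT box, which 33.8% of windows have, and Irx4 held none. Neither held the palindrome ACANNTGT that Iroquois proteins can bind, present in 6.31% of windows, nor the TATA box TATAAA, present in 12.4%. These matches describe letters in a window and not sites of binding.

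Across the whole table, 20434 probes had a value on all 6 arrays and were tested. Precision is limited by having 2 arrays per genotype. Arrays of a genotype correlated at r = 0.994 (homozygous), 0.993 (heterozygous) and 0.989 (wild type) across these probes, which are not independent replicates. The Ecrg4 probe read 1.4 and 1.3 in the homozygous arrays, 345.5 and 373.9 in the heterozygous arrays and 112.9 and 154.9 in the wild type arrays. The homozygous label thus matched the probe, but heterozygous exceeded wild type, so directions below refer to the arrays as labelled. As a gauge of background, the 95th percentile of 663 olfactory receptor probes lay between 50.5 and 57.6 per array, and is called the olfactory receptor level. Of 9 measured neural stem cell markers, 8 exceeded it on all 6 arrays. The summed intensity of the 9 was 68505 to 68862 in homozygous, 61749 to 64805 in heterozygous and 64098 to 66223 in wild type arrays. Most of this sum came from the Fabp7 and Vim probes. None of 6 neuron, 7 meningeal and pericyte or 2 choroid plexus markers exceeded the olfactory receptor level on any array. The 5 astrocyte markers summed to 1999 to 2174 in homozygous, 3339 to 3395 in heterozygous and 1546 to 2123 in wild type arrays, mostly the Gja1 probe, at 1940.3 and 1825.8 in homozygous, 2917.2 and 2925.3 in heterozygous and 1361.3 and 1860.2 in wild type arrays. Their median log2 difference between homozygous and heterozygous was -0.85, with 4 of 5 at an unadjusted p under 0.05, beside 18.2% of all tested probes. In that comparison 1 was called, beside 2.69%, the water channel gene Aqp4 (-2.37, limma adjusted p = 0.0333). Its probe exceeded the olfactory receptor level on 1 array. Between heterozygous and wild type the astrocyte median was 0.88, with 4 of 5 at such a p, beside 13.5%. Between homozygous and wild type it was -0.12, with 0 of 5. The 5 oligodendrocyte lineage markers summed to 8632 to 10499 in homozygous, 7690 to 8790 in heterozygous and 6940 to 7068 in wild type arrays, mostly the Olig1 probe, at 10348 and 8505.6 in homozygous, 7554.1 and 8680.5 in heterozygous and 6805.9 and 6933.1 in wild type arrays. No gene of that list was called, and its median log2 difference between homozygous and wild type was -0.13. Of the other markers, 3 of 4 for microglia, the 1 tested for endothelium and 2 of 3 for ependyma lay under the olfactory receptor level on every array. Between heterozygous and wild type 1 of the 4 microglia markers was called, beside 0.749% of all tested probes. This was Cx3cr1 (-1.30, limma adjusted p = 0.0374), whose probe lay under that level on every array. The part of these differences in the results below was not tested. In bulk cultures, fewer cells of a type and less RNA per cell cannot be told apart.

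Only Irx5 exceeded the olfactory receptor level on all 6 arrays. Irx1 exceeded it on the 4 heterozygous and wild type arrays and lay under it on both homozygous arrays. Irx2, Irx3, Irx4 and Irx6 lay under it on every array, so their differences carry no fold or bound and are given as measured. Against single olfactory receptor probes, Irx2 exceeded between 74.0% and 93.2% of them on a given array, Irx3 between 78.1% and 84.6%, Irx4 between 78.0% and 85.2% and Irx6 between 47.8% and 70.0%. Intensities of different probes are not comparable as levels, so the 6 genes are not ranked by abundance.

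Homozygous cells were compared with wild type cells to see how Iroquois transcripts stood where the Ecrg4 probe read lowest. Irx1 and Irx2 fell, Irx5 was lower without passing the threshold, and Irx3, Irx4 and Irx6 did not pass. Of the 6 members, 2 passed at an adjusted p under 0.05 (limma, Benjamini-Hochberg over all probes tested), both lower, where 0.92% of all tested probes passed in either direction and 0.489% passed as lower. Without adjustment 4 members had a p under 0.05, beside 19.0% of all tested probes. In 4 members both homozygous arrays lay below both wild type arrays, as in 24.8% of all tested probes. The median log2 difference of the members was -0.56, beside 0.02 over all tested probes.

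Irx1, which marks the midbrain, hindbrain and spinal cord and also developing lung and limb, read 17.5 and 15.9 in homozygous arrays, against 73.0 and 75.8 in wild type arrays. The genotypes did not overlap, and the arrays of each differed by 1.10-fold (homozygous) and 1.04-fold (wild type). On the log2 scale Irx1 averaged 4.06 ± 0.10 in homozygous and 6.22 ± 0.04 in wild type arrays (SD, n = 2 each). The log2 difference was -2.16 ± 0.16 (SE of the limma fit, 95% interval -2.55 to -1.76, adjusted p = 0.00779). With the homozygous arrays set at the olfactory receptor level, Irx1 was at least 1.38-fold lower. This bound, like those below, is a ratio of array values and does not include the array-to-array spread. Leaving out wild type array 1 (adjusted p = 0.0501), homozygous array 1 (0.0965) or homozygous array 2 (0.123) ended the call.

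Irx2, the neighbour of Irx1 and often expressed where it is, read 12.8 and 12.1 in homozygous arrays, against 41.9 and 32.7 in wild type arrays. The genotypes did not overlap, but no array reached the olfactory receptor level. The log2 means were 3.64 ± 0.06 in homozygous and 5.21 ± 0.25 in wild type arrays (SD, n = 2 each), a difference of -1.57 ± 0.21 (95% interval -2.09 to -1.06, limma adjusted p = 0.0397). This call ended in all 6 fits that left 1 array out, each of which leaves 1 genotype with 1 array. The log2 difference in these fits lay between -1.75 and -1.39. Heterozygous arrays enter only the estimate of the spread here, and without either of them the difference stayed at -1.57. The call also ended with blank cells filled (0.0707), array weights (0.0539) or only the arrays compared (0.0610), and with a pseudocount of 16 the difference was -0.90.

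Irx4, known for its part in the ventricular muscle of the heart, completed the chromosome 13 cluster and read 14.5 and 20.4 in homozygous arrays, against 23.0 and 19.2 in wild type arrays. These values overlapped. The log2 difference was -0.29 ± 0.22 (95% interval -0.83 to 0.26, limma adjusted p = 0.518).

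In the chromosome 8 cluster, Irx5, which shapes the electrical gradient of the heart wall and acts in retinal bipolar cells, read 95.8 and 95.1 in homozygous arrays, against 169.7 and 168.6 in wild type arrays. The arrays of each genotype agreed within 1.01-fold, and the genotypes did not overlap. Log2 means were 6.58 ± 0.01 in homozygous and 7.40 ± 0.01 in wild type arrays (SD, n = 2 each). The log2 difference was -0.83 ± 0.14 (95% interval -1.18 to -0.48), with an unadjusted p of 0.00107 and an adjusted p of 0.0685 in limma, so Irx5 missed the threshold here. It passed with median centring (0.0470), cyclic loess (0.0491), a pseudocount of 16 (0.0105), an intensity trend (0.00898) or only probes above the olfactory receptor level (0.0117).

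Irx3, which with Olig2 sets a boundary between progenitor domains of the ventral spinal cord, read 14.9 and 16.8 in homozygous arrays, against 17.8 and 17.1 in wild type arrays. The log2 difference was -0.14 ± 0.15 (95% interval -0.50 to 0.21, limma adjusted p = 0.635). Irx6, another gene of retinal bipolar cells, ran the other way at 10.1 and 10.2 in homozygous arrays, against 6.4 and 7.4 in wild type arrays. Its log2 difference of 0.56 ± 0.18 did not pass (limma adjusted p = 0.177).

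**Figure D1:**
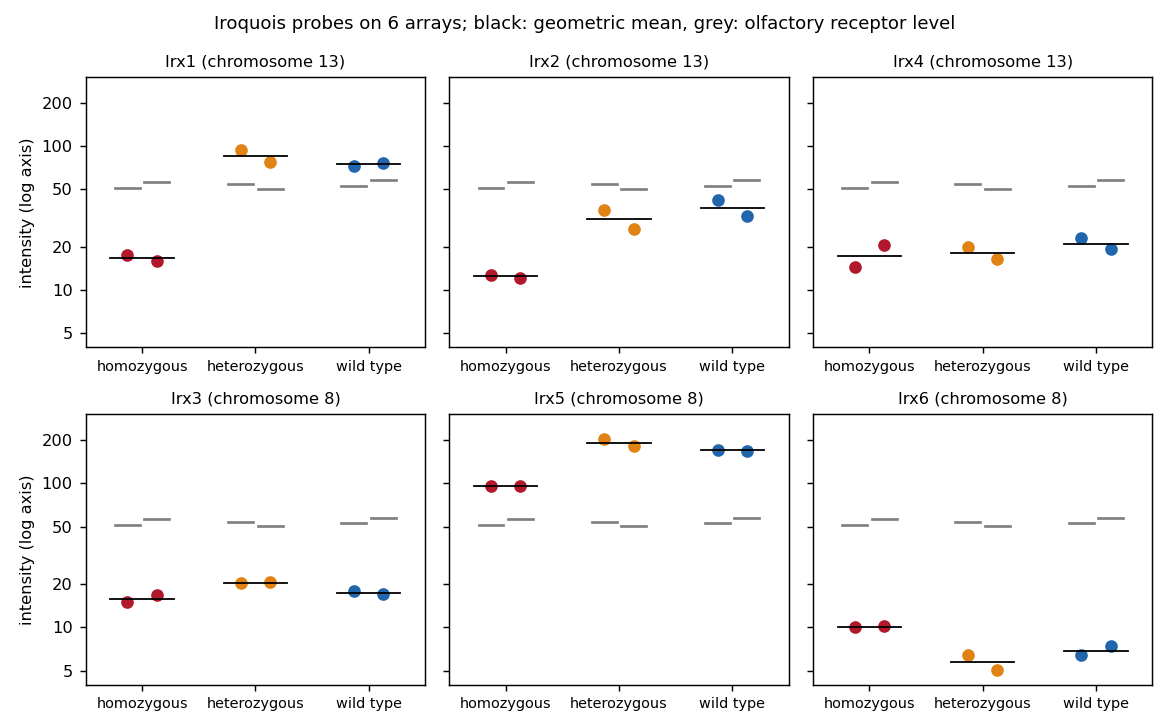
Intensity of the 6 Iroquois probes (vertical log axis) on each array, by genotype, with 1 panel per gene; black bars are geometric means of 2 arrays and grey bars the olfactory receptor level of each array. Irx1, Irx2, Irx3 and Irx5 were lower in both homozygous arrays than in the other 4, Irx6 was higher there, and only Irx5 stayed above the grey bars throughout.

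Homozygous cells were also compared with heterozygous cells, which carried the highest Ecrg4 readings. Here Irx1, Irx2 and Irx5 all fell, 3 of 6 members, with 2.69% of all tested probes called in either direction and 1.43% called as lower. Without adjustment 5 members had a p under 0.05, beside 18.2% of all tested probes, and 4 had both homozygous arrays below both heterozygous arrays, as in 25.9%. The members had a median log2 difference of -0.68, beside 0.04 over all tested probes. This comparison uses the same homozygous arrays as the one with wild type, so the repeated direction is not a second observation.

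Irx1 read 17.5 and 15.9 in homozygous arrays, against 94.1 and 77.8 in heterozygous arrays. The log2 difference was -2.36 ± 0.16 (95% interval -2.75 to -1.96, limma adjusted p = 0.00389), and the bound was at least 1.59-fold lower. Without homozygous array 1 or 2 the adjusted p was 0.0610 and 0.0595, which ended the call.

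Irx2 read 12.8 and 12.1 in homozygous arrays, against 36.2 and 26.6 in heterozygous arrays, again with no overlap and under the olfactory receptor level. Its log2 difference was -1.32 ± 0.21 (limma adjusted p = 0.0372). With a pseudocount of 16 it was -0.73. The call ended without heterozygous array 1 (0.139) or 2 (0.0949), without homozygous array 1 (0.203) or 2 (0.245) and with blank cells filled (0.0606).

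Irx5 read 95.8 and 95.1 in homozygous arrays, against 201.5 and 180.4 in heterozygous arrays. The log2 difference was -0.998 ± 0.14 (limma adjusted p = 0.0280), and the 95% interval of the decrease was 1.57-fold to 2.55-fold. All 4 arrays were above the olfactory receptor level and the genotypes did not overlap. The call ended without heterozygous array 1 (0.134) or 2 (0.120) and without homozygous array 1 (0.191) or 2 (0.209).

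The remaining members did not pass between these genotypes. Irx3 read 20.2 and 20.5 in heterozygous arrays, with a log2 difference of -0.36 ± 0.15 (limma adjusted p = 0.268). Irx4 read 20 and 16.3 there, with a difference of -0.07 ± 0.22 (adjusted p = 0.900) whose sign turned to 0.08 without heterozygous array 1 and to 0.18 without homozygous array 1. Irx6 read 6.4 and 5.1 there, and the difference of 0.83 ± 0.18 had an adjusted p of 0.0730. It passed with median centring (0.0452) and with array weights (0.0327).

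Arrays labelled heterozygous were set against arrays labelled wild type, where the Ecrg4 probe was higher in the heterozygous ones. No member passed in limma, where 0.749% of all tested probes did, and 0 of 6 had an unadjusted p under 0.05, beside 13.5% of all tested probes. The log2 differences lay between -0.27 for Irx6 and 0.22 for Irx3, with a median of -0.02 beside -0.01 over all tested probes. For Irx1 the interval of the log2 difference ran from -0.19 to 0.60 and for Irx5 from -0.18 to 0.52, so increases of up to 1.51-fold and 1.44-fold lie within them. Irx1 read 94.1 and 77.8 in heterozygous arrays, against 73.0 and 75.8 in wild type arrays. Irx5 read 201.5 and 180.4 in heterozygous arrays, against 169.7 and 168.6 in wild type arrays. In these genes and in Irx3, 3 of 6 members, both heterozygous arrays lay above both wild type arrays, beside 21.0% of all tested probes. Irx2 read 36.2 and 26.6 in heterozygous arrays, against 41.9 and 32.7 in wild type arrays, and these overlapped, as did those of Irx4 and Irx6. A missed threshold does not show that the genotypes were alike.

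In the moderated F test over the 3 genotypes, Irx1 (adjusted p = 0.00509), Irx2 (0.0358) and Irx5 (0.0439) passed, 3 of 6 members, with 2.26% of all tested probes passing. Irx6 (0.119), Irx3 (0.342) and Irx4 (0.631) did not. The order of genotypes was homozygous, wild type, heterozygous from low to high for Irx1, Irx3 and Irx5. For Irx2 and Irx4 heterozygous stood below wild type, and for Irx6 the order was heterozygous, wild type, homozygous. Irx1 did not pass without homozygous array 1 (0.0655) or 2 (0.0735), and Irx2 and Irx5 passed in 1 of 6 fits that left out an array, the one without wild type array 2 (0.0433 and 0.0477). With blank cells filled, Irx2 (0.0627) and Irx5 (0.0752) did not pass.

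**Figure D2:**
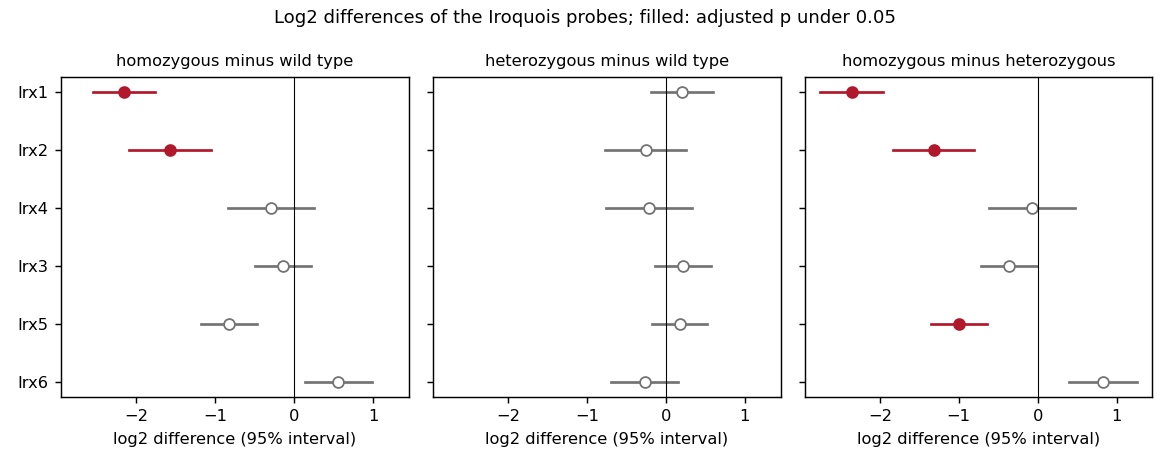
Log2 differences of the 6 probes (horizontal axis) with 95% intervals of the limma fit, in 3 panels for the 3 comparisons; filled red points have an adjusted p under 0.05. Irx1 and Irx2 were called in both comparisons with homozygous arrays, Irx5 in 1 of them, and no member between heterozygous and wild type.

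Ratios between members within an array were compared as a description. Between homozygous and wild type, the log2 ratio of the neighbours Irx1 to Irx2 shifted by -0.58, and the 95% intervals of their differences overlapped. The ratio of Irx2 to Irx4 shifted by -1.28, that of Irx5 to Irx3 by -0.68 and that of Irx5 to Irx6 by -1.39. Each of these within-cluster ratios has a member under the olfactory receptor level on every array. Across clusters, the ratio of Irx1 to Irx5 shifted by -1.33, with Irx1 under that level in the homozygous arrays. Between homozygous and heterozygous, the ratio of Irx1 to Irx2 shifted by -1.04. The 95% intervals of their differences did not overlap there (-2.75 to -1.96 for Irx1 and -1.83 to -0.80 for Irx2). These shifts were not tested.

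The genes that flank the clusters were read as their surroundings, with the 3 nearest protein-coding genes on either side that had a tested probe. None of these 12 passed between homozygous and wild type (limma), though 3 had an unadjusted p under 0.05, beside 0.92% and 19.0% of all tested probes. Their log2 differences lay between -0.61 and 0.55, a range that holds neither Irx1 nor Irx2 nor Irx5. Fto, the demethylase gene whose introns carry enhancers of Irx3, read 1768.4 and 1753.5 in homozygous arrays, against 2341.6 and 2242.8 in wild type arrays, a difference of -0.38 ± 0.14 (adjusted p = 0.227). Ndufs6, a respiratory complex subunit gene 50.3 kb from Irx4, had a difference of -0.30 ± 0.14 (adjusted p = 0.306). Mmp2, a matrix protease gene 146 kb beyond Irx6, read 8.7 and 5.7 in homozygous arrays, against 7.1 and 6.1 in wild type arrays.

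Between homozygous and heterozygous, 1 of the 12 neighbours passed, beside 2.69% of all tested probes. Ube2ql1, related to ubiquitin-conjugating enzymes and 2218 kb from Irx1, rose by 0.99 ± 0.17 (limma adjusted p = 0.0404). It ran opposite to Irx1, at 111.1 and 118.7 in homozygous arrays, against 53.9 and 62.0 in heterozygous arrays. Leaving out either heterozygous array (0.169 and 0.143) or either homozygous array (0.215 and 0.267) ended that call, as did median centring (0.0533) and filling blank cells (0.0650). Between heterozygous and wild type 0 of 12 passed, and 2 had an unadjusted p under 0.05, beside 0.749% and 13.5% of all tested probes. Of the 12 probes, 6 exceeded the olfactory receptor level on all arrays.

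**Figure D3:**
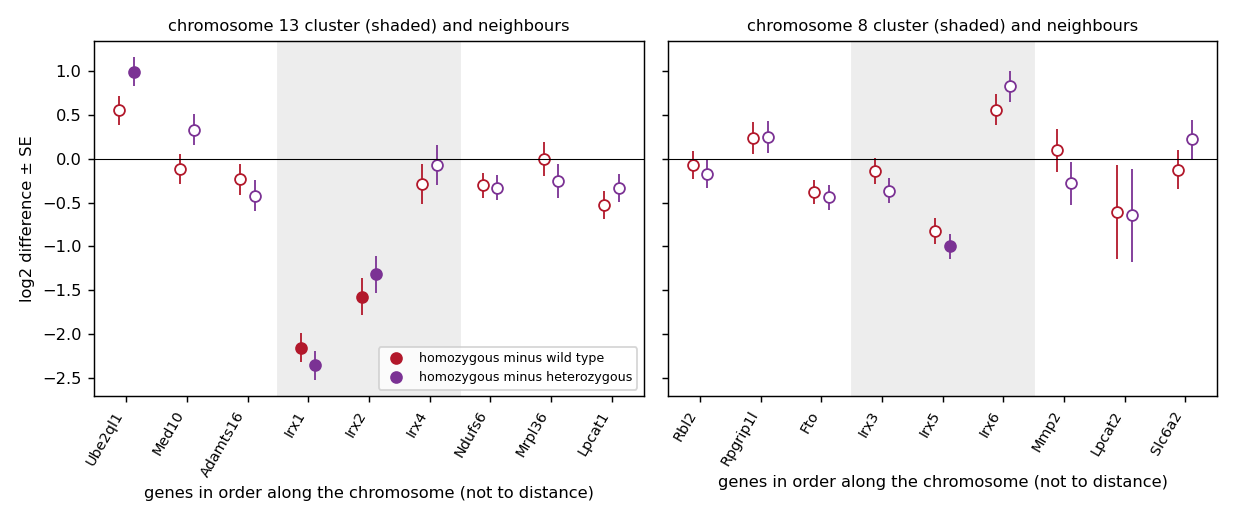
Log2 differences ± SE (vertical axis) of the Iroquois genes (shaded) and their 6 flanking genes per cluster, in chromosomal order; red is homozygous minus wild type, purple is homozygous minus heterozygous, and filled points have an adjusted p under 0.05. Irx1 and Irx2 lay below every flanking gene in both comparisons.

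The other genes of the TALE class, to which Iroquois proteins belong, were counted in the same way. Of 12 relatives 9 were tested, and none passed in any of the 3 comparisons (limma), while 2, 2 and 4 had an unadjusted p under 0.05 between homozygous and wild type, heterozygous and wild type, and homozygous and heterozygous. Over all tested probes 0.92%, 0.749% and 2.69% passed in these comparisons, and 19.0%, 13.5% and 18.2% had such a p. The relatives' median log2 difference between homozygous and wild type was 0.16. Of the 9 relatives, 3 lay under the olfactory receptor level on every array, Pbx2 among them. Pbx2, a cofactor of Hox proteins, read 23.1 and 26.7 in homozygous arrays, against 42.0 and 51.4 in wild type arrays, with a log2 difference of -0.90 ± 0.21 (limma adjusted p = 0.115). Tgif1, a repressor in TGF-beta signalling, read 119.9 and 161.6 in homozygous arrays, against 130.9 and 160.5 in wild type arrays, which overlapped. Its relative Tgif2 gave 0.21 ± 0.17 and Pbx3 gave -0.04 ± 0.19 in that comparison.

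Among 16 tested factors of 20 that meet Iroquois genes at boundaries of the neural tube, 1 fell in both comparisons with homozygous arrays. Over all tested probes 0.489% were called as lower against wild type and 1.43% against heterozygous. Without adjustment 2 and 3 of the 16 had a p under 0.05, beside 19.0% and 18.2% of all tested probes. Dbx2, a homeobox gene of intermediate neural tube progenitors, read 173.4 and 108.9 in homozygous arrays, 384.1 and 487.9 in heterozygous arrays and 531.0 and 632.4 in wild type arrays. Its log2 difference was -2.08 ± 0.26 against wild type (limma adjusted p = 0.0334) and -1.66 ± 0.26 against heterozygous (adjusted p = 0.0356). Every array was above the olfactory receptor level, and the genotypes did not overlap. In the 6 fits that left an array out, the adjusted p against wild type lay between 0.0637 and 0.188, and against heterozygous between 0.0542 and 0.189. Otx1, a homeobox gene of the forebrain and midbrain, read 155.4 and 115.4 in homozygous arrays, against 268.7 and 217.3 in wild type arrays, without passing (-0.85 ± 0.26, adjusted p = 0.167). Olig2, the partner of Irx3 at its ventral boundary and named after its values were seen, read 2948.5 and 2576.3 in homozygous arrays, against 2828.7 and 3202.6 in wild type arrays, and did not pass. The list's median log2 difference was -0.13 between homozygous and wild type and -0.12 between homozygous and heterozygous. Of its 16 tested genes, 8 lay under the olfactory receptor level on every array.

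Of 20 genes of the hedgehog, Wnt, retinoid and BMP pathways, which act beside Iroquois genes in the neural tube, 16 were tested. Over all tested probes 0.92% passed between homozygous and wild type and 2.69% between homozygous and heterozygous. Between homozygous and wild type 1 fell, the BMP target Msx1 (-1.30 ± 0.19, limma adjusted p = 0.0476), and between homozygous and heterozygous 1 rose, the ligand gene Shh (2.15 ± 0.36, adjusted p = 0.0395). Of the 16, 11 lay under the olfactory receptor level on every array, both of these among them. Shh read 14.2 and 13.4 in homozygous arrays, against 4.4 and 2.2 in heterozygous arrays. Without adjustment 4 of the 16 had a limma p under 0.05 between homozygous and wild type and 3 between homozygous and heterozygous. Over all tested probes 19.0% and 18.2% had such a p. Between heterozygous and wild type 0 of the 16 passed and 7 had such a p, beside 0.749% and 13.5% of all tested probes. Msx1 passed in none of the 6 fits that left an array out (adjusted p between 0.0699 and 0.296), and Shh in 1, without heterozygous array 1 (0.0449). With a pseudocount of 16 the Msx1 difference was -0.81 and that of Shh 0.63.

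Regional genes of the forebrain and of the posterior nervous system were counted beside the Iroquois genes. Over all tested probes 0.92% passed between homozygous and wild type, 2.69% between homozygous and heterozygous and 0.749% between heterozygous and wild type. Of 11 tested forebrain factors, 1 rose and 1 fell between homozygous and wild type: Emx2, a gene of the dorsal telencephalon, gave 1.55 ± 0.16 (limma adjusted p = 0.0210), and Nr2f2, a nuclear receptor gene named after its values were seen, gave -1.43 ± 0.15 (0.0215). Between homozygous and heterozygous 4 rose and 1 fell, with a median of 0.53 beside 0.04 over all tested probes. Dmrta2 gave 3.26 ± 0.21 there (adjusted p = 0.00343), and Dlx1 and Dlx2, homeobox genes of ventral forebrain progenitors, gave 1.83 ± 0.20 and 1.47 ± 0.14 on probes under the olfactory receptor level on every array. Of the 11 forebrain factors, 7 lay under that level on every array. Without adjustment 3 of the 11 had a limma p under 0.05 between homozygous and wild type, beside 19.0% of all tested probes. Between homozygous and heterozygous 8 had such a p, beside 18.2%, and between heterozygous and wild type 5, beside 13.5%. Of 8 tested Hox genes, which mark the hindbrain and spinal cord, none passed between homozygous and wild type. Of these, 2 had an unadjusted p under 0.05, beside 19.0% of all tested probes. Between homozygous and heterozygous 2 fell, Hoxa5 (-3.84 ± 0.29, adjusted p = 0.00437) and Hoxa2 (-1.15 ± 0.19, 0.0387). Of the 8, 7 lay under the olfactory receptor level on every array. Between heterozygous and wild type 1 Hox gene rose, Hoxa5 (2.31 ± 0.29, adjusted p = 0.0303), and 3 forebrain factors fell, Dmrta2 (-2.02 ± 0.21, 0.0174), Dlx1 (-2.04 ± 0.20, 0.0148) and Dlx2 (-1.15 ± 0.14, 0.0275). Leaving out either homozygous array ended each of these calls that involved homozygous arrays, with adjusted p between 0.0542 and 0.232. Between homozygous and heterozygous, leaving out either heterozygous array ended the calls of Emx2, Nr2f2, Dlx1, Dlx2 and Hoxa2 (0.0586 to 0.171) but not those of Dmrta2 and Hoxa5, and leaving out either wild type array ended that of Hoxa2 (0.0547). Between homozygous and wild type, the calls of Emx2 and Nr2f2 also ended without wild type array 1 or either heterozygous array (0.0575 to 0.0866). Where 1 genotype lay under the olfactory receptor level, Dmrta2 was at least 5.57-fold higher in homozygous than in heterozygous arrays and at least 2.35-fold lower in heterozygous than in wild type arrays, and Nr2f2 was at least 1.58-fold lower in homozygous than in wild type arrays. Nr2f2 was at least 1.23-fold lower in homozygous than in heterozygous arrays. Emx2 and Hoxa5 exceeded that level on 1 array each, and no bound is given for them. With a pseudocount of 16 the differences between homozygous and heterozygous were 1.06 for Dlx1, 0.43 for Dlx2, -1.77 for Hoxa5 and -0.19 for Hoxa2, and the last no longer passed (0.273). Between heterozygous and wild type, Hoxa5 and Dmrta2 did not pass without either heterozygous array (adjusted p between 0.0925 and 0.184) or either homozygous array (0.0996 for Hoxa5 and 0.0738 for Dmrta2). Dlx1 and Dlx2 passed there in 1 of 6 fits that left out an array, the one without wild type array 2 (0.0441 and 0.0463), and with a pseudocount of 16 the differences were -1.22 and -0.31, of which that of Dlx2 did not pass (0.160).

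**Figure D4:**
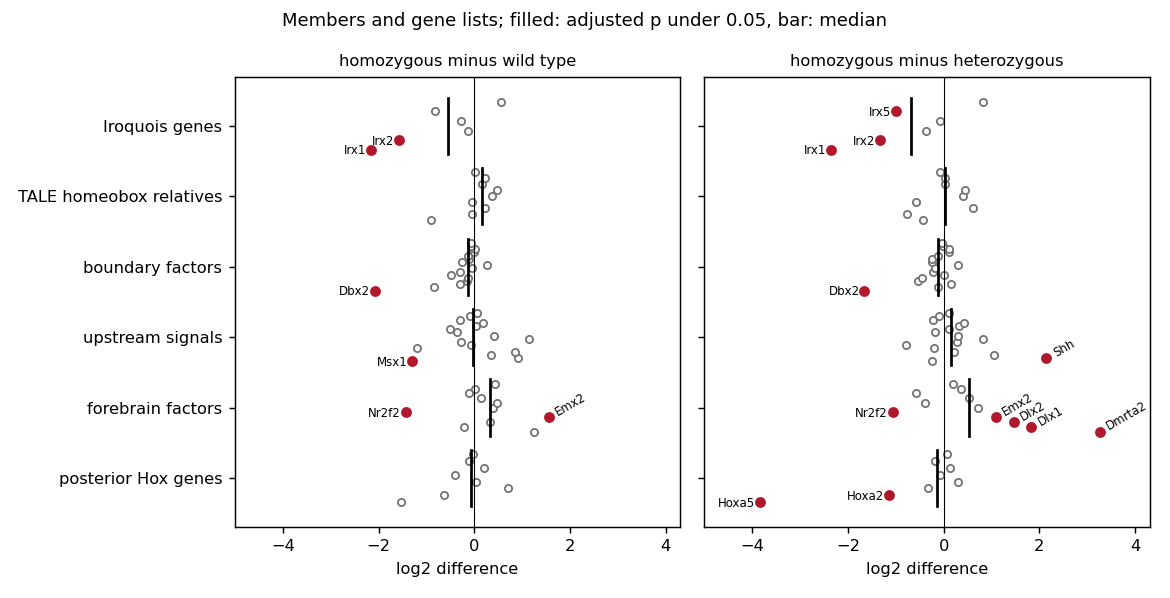
Log2 differences (horizontal axis) of the 6 Iroquois genes and the tested members of 5 gene lists, homozygous minus wild type at left and homozygous minus heterozygous at right; each point is a probe, filled points have an adjusted p under 0.05 and bars are medians. The median of the Iroquois genes was -0.56 at left and -0.68 at right, and no TALE relative passed.

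The probes whose pattern over the 6 arrays was most like that of a member were found by the root mean square difference of mean-centred log2 values, among 7303 named probes with a genotype above the olfactory receptor level. This is a description over 6 arrays in 3 genotypes, and it carries no p. Nearest to Irx1 were the transporter gene Mfsd10 (0.18), the hypoxia-inducible gene Ndrg1 (0.19), the glutathione transferase gene Gsta4 (0.23), the calpain protease gene Capn5 (0.25) and Vasn, a TGF-beta binding protein gene (0.27). Mfsd10 read 54.5 and 53.9 in homozygous arrays, 234.5 and 237.8 in heterozygous arrays and 179.4 and 190.6 in wild type arrays. By the same measure Irx2 stood at 0.45 from Irx1, with 26 of the 7303 probes nearer, and Irx5 at 0.64, with 108 nearer.

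Nearest to Irx5 were Frg1 (0.07), the transcription factor gene Nfix (0.11), the receptor gene Notch1 (0.11), the mitotic cyclin gene Ccnb2 (0.11) and the GDP-mannose dehydratase gene Gmds (0.11). Notch1 read 224.6 and 217.2 in homozygous arrays, 374.4 and 399.0 in heterozygous arrays and 367.1 and 376.3 in wild type arrays. Among the Iroquois genes Irx3 stood nearest to Irx5 at 0.32, with 931 of the 7303 probes nearer, and Irx2 at 0.33, with 1093 nearer. Irx4 stood at 0.42 from Irx5, with 2546 nearer, Irx1 at 0.64, with 6456 nearer, and Irx6 at 0.78, with 7036 nearer. The distance between Irx1 and Irx5 thus ranked close from the side of Irx1 and far from the side of Irx5.

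**Figure D5:**
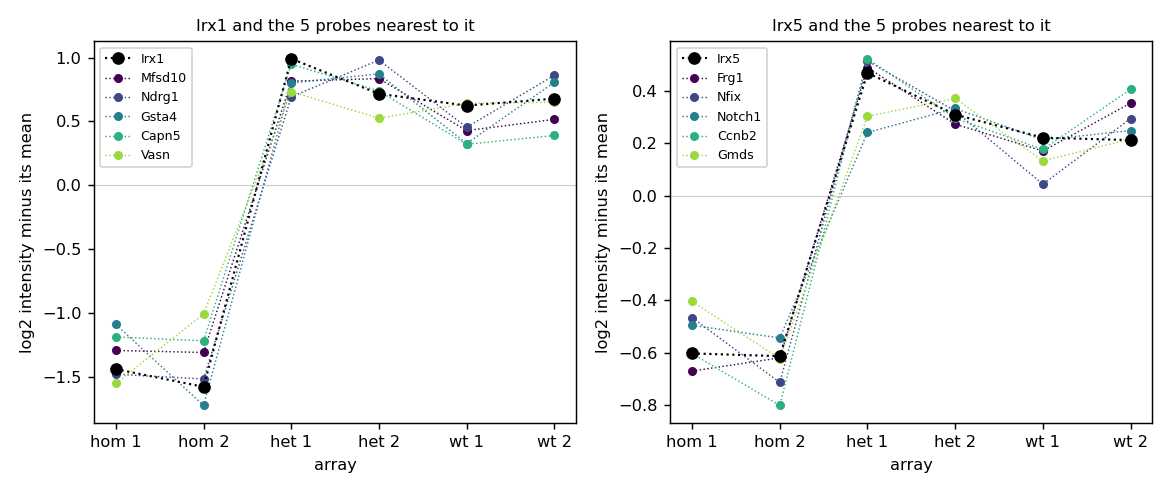
Log2 intensity minus its mean over 6 arrays (vertical axis) on each array (hom, homozygous; het, heterozygous; wt, wild type) for Irx1 and Irx5 in black and the 5 nearest probes of each in colour; dotted lines only guide the eye. All 12 profiles lay below 0 in both homozygous arrays and above 0 in the other 4.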

How the data were processed

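The authors deposited linear intensity values, 1 per probe and array, with a median of 30 on every array. Values were therefore read as scaled to a common median. The sources used here name neither the background correction nor the rule for blank cells. Amplified RNA was coupled to a dye, per the labels' protocols, while the label field names biotin. The 3032 probes with a blank cell were left out, and no pseudocount or further scaling was applied. Log2 values of the 6 arrays entered a limma 3.58.1 fit (R 4.3.3) whose coefficients were the 3 genotype means, moderated by eBayes with 3 residual and 3.27 prior degrees of freedom. Tests were two-sided with Benjamini-Hochberg adjustment over 20434 probes at a threshold of 0.05. The scripts were tested on simulated data. Symbols were updated through a RefSeq table of GRCm38.p6 (3943 replaced), and genes with several probes used the one of highest mean. The 16 alternatives covered scaling, pseudocount, blank cells, dim probes, the prior, weights, arrays used, a replicate block and leaving out each array. Members, lists and the background gauge were chosen with earlier results of these data known. The named genes were the members, Ecrg4, the 3 nearest genes on each side of a cluster, up to 4 genes per list and the 5 nearest profiles per member above the olfactory receptor level. Olig2 and Nr2f2 fall outside that rule and were named after their values were seen, as were the neighbours given values chosen from the 12.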

Additional observations from a re-analysis of the deposited data

How the results depend on the processing

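In 4 of 6 members signal under the olfactory receptor level limits what can be read, and 2 arrays per genotype limit all calls. The sign of every member difference held in all alternatives run, except Irx4 between homozygous and heterozygous (0.08 without heterozygous array 1 and 0.18 without homozygous array 1, in a range of -0.32 to 0.18 over fits without 1 array). Irx1 passed in 13 of 16 alternatives against wild type and 14 of 16 against heterozygous, Irx2 in 5 and 10 of 15, and Irx5 in 5 and 11 of 16. The count of members called between homozygous and wild type was 1 with blank cells filled, with array weights, with only the arrays compared and with the replicate block, 3 with median centring, cyclic loess, the pseudocount and the trend, and 0 to 1 over fits without 1 array. Between homozygous and heterozygous it was 4, of which 1 higher, with median centring and with array weights, and 2 with blank cells filled. With only probes above the olfactory receptor level it was also 2, but only Irx1 and Irx5 were tested there. The count was lower than in the main fit in each fit without a homozygous or heterozygous array.

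Same-numbered arrays did not deviate together (r between -0.08 and 0.02 across probes), so the numbers were not taken as pairs. With the replicate block, 47, 51 and 244 probes passed between homozygous and wild type, heterozygous and wild type, and homozygous and heterozygous, and 166 over the 3 genotypes. Irx1 and Irx2 then passed between homozygous and heterozygous, 2 members, and Irx5 did not (adjusted p = 0.0694). It also ended the call of Irx2 between homozygous and wild type (0.0670), those of Irx2 (0.0537) and Irx5 (0.106) over the 3 genotypes, and that of Ube2ql1 (0.0933).

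Counts over all probes moved more. Between homozygous and wild type 188 became 314 with median centring, 328 with quantile scaling, 313 with cyclic loess, 1143 with a pseudocount of 16, 88 with blank cells filled, 878 with only probes above the olfactory receptor level, 1094 with an intensity trend and robust prior, 89 with array weights, 59 with only the arrays compared and 1 to 224 without 1 array. Between heterozygous and wild type 153 became 306 with the pseudocount, 400 with the trend, 100 with weights, 40 with only the arrays compared and 18 to 340 without 1 array. Between homozygous and heterozygous 549 became 1376 with the pseudocount, 320 with blanks filled, 1020 above the olfactory receptor level, 1357 with the trend, 1261 with weights and 6 to 680 without 1 array. Over the 3 genotypes 462 became 721 with median centring, 1493 with the pseudocount, 266 with blanks filled, 1071 above the olfactory receptor level, 1582 with the trend, 791 with weights and 24 to 843 without 1 array. The causes were not tested.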
